A study of Mus musculus with 12 samples.

Results

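The 28 genes described here encode the enzymes that turn acetyl-CoA into cholesterol, the regulators of the transcription factor SREBP2, and proteins that move or store sterols. They were taken by symbol from the 25540 gene symbols of a count table of mouse liver RNA, and all 28 were found, 27 under the listed symbol and Msmo1 under the older symbol Sc4mol. The study profiled mRNA in livers of BALB/c mice, under a title that concerns exosome delivery against STAT3 in liver fibrosis; exosomes are small vesicles released by cells, and STAT3 is a transcription factor activated by cytokines. Mice of 4 groups were injected with exosomes, called iExos in the labels, that carried a STAT3 siRNA (siSTAT3), a control siRNA (siCntrl), a STAT3 load of another kind (mASO STAT3) or its scrambled control (mASO Scrbl). Each group has 3 libraries, 12 in all. siSTAT3 against siCntrl is called the siRNA arm, and mASO STAT3 against mASO Scrbl the mASO arm. All livers received loaded exosomes, so no uninjected liver enters any comparison. The labels give neither a fibrosis treatment, age or time of injection, nor the meaning of mASO, and do not say whether the libraries of a group come from separate animals, so p-values measure only the spread between these libraries.

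Liver makes cholesterol from acetyl-CoA through mevalonate, the prenyl diphosphates, squalene and lanosterol. The pathway is controlled by SREBP2, the product of Srebf2, which sits in the endoplasmic reticulum bound to the escort protein SCAP. When membranes are rich in sterol the INSIG proteins hold SCAP back; when sterol is scarce SCAP carries SREBP2 to the Golgi, where proteases release the part that enters the nucleus and binds the promoters of most genes of the pathway. Insig1 is itself an SREBP target, whereas the liver form of Insig2 is known to be repressed by insulin. NF-Y, a factor that binds the CCAAT box, is a known partner of SREBP at these promoters.

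Promoter sequences are shown because many of the 28 genes are known for this shared control and yet were called in different directions. RefSeq (GRCm38.p6) gave a promoter for 22 of the 28 genes; Fdps, Fdft1, Sqle, Stard4, Npc1 and Soat2 had none in the table. Over the 250 bases before the transcription start, CCAAT on either strand (read as ATTGG when on the opposite strand) was present in 20 of the 22 genes, or 90.9%, against 37.5% of 27025 genes with a promoter in the table and 39.5% of the protein-coding ones. At least 2 copies were present in 13 of the 22, or 59.1%, against 11.5% of all. Acat2 and Scap had none. The sterol element TCACNCCAC, searched on both strands, matched in 1 of the 22, or 4.55%, against 1.22% of all genes. That gene was Hmgcs1, and its match overlapped no CCAAT. The promoters of 4 genes follow, 5′ to 3′ on the strand of the gene, with CCAAT boxes of either direction and the sterol element in capitals: Hmgcs1 (chr13:119690101-119690350, plus strand), which was called in opposite directions in the arms; Insig1 (chr5:28071162-28071361, plus strand, the window without its last 50 bases) and Ebp (chrX:8193513-8193762, minus strand), higher in both; and Lbr (chr1:181842402-181842651, minus strand), called in neither.
Hmgcs1: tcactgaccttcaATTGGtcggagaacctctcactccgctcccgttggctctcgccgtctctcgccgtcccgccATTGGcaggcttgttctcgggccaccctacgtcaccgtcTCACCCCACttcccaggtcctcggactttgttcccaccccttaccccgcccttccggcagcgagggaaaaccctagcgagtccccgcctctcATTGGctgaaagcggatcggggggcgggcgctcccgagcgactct
Insig1: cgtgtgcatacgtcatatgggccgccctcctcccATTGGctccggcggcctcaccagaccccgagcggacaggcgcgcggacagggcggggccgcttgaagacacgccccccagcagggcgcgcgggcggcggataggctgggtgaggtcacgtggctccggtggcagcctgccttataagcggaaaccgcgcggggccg
Ebp: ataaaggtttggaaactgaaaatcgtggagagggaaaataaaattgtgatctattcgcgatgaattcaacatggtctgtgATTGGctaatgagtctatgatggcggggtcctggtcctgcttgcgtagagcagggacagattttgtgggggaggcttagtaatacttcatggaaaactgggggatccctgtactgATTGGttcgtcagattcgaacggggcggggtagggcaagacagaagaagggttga
Lbr: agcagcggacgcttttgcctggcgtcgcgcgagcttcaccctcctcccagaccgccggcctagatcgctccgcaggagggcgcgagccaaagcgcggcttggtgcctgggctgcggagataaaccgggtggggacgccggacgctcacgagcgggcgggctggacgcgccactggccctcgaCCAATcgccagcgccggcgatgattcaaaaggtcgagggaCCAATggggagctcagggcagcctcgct
Lbr, which was called in neither arm, carried 2 CCAAT copies, Ebp carried 2, Hmgcs1 3 and Insig1 1. These 4 promoters were picked from the 22, and the number of copies was not tested against the calls.

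Total counts were 39844158 to 57926887 in the libraries labelled siSTAT3, 55406038 to 67791159 in siCntrl, 50024153 to 61804382 in mASO STAT3 and 64619765 to 66498894 in mASO Scrbl. Stat3, the target, had 91.5, 116.5 and 122 CPM (counts scaled to library size, with TMM factors) in the siSTAT3 libraries, against 106, 121 and 111 CPM in siCntrl. It had 105, 88.2 and 115 CPM in mASO STAT3, against 106, 90.0 and 101 CPM in mASO Scrbl. The groups overlapped in both arms and neither passed the test (log2 fold change -0.03 ± 0.14, edgeR adjusted p = 0.868, and 0.05 ± 0.14, edgeR adjusted p = 0.792). With TMM scaling this mRNA does not set the STAT3-labelled libraries apart from their controls. Before scaling, Stat3 had 4453, 4530 and 3967 counts in siSTAT3, against 7959, 8407 and 7700 in siCntrl. It had 4257, 4638 and 5734 counts in mASO STAT3, against 8767, 7428 and 8165 in mASO Scrbl. These raw counts were lower in the STAT3-labelled libraries of both arms, and they also depend on the total counts above. A test of Stat3 with library totals is not given here. Every group name below therefore stands for libraries with that label. The summed level of 14 hepatocyte markers was 154887 to 166893 CPM in siSTAT3 against 65475 to 105284 in siCntrl, and 135698 to 181226 in mASO STAT3 against 67664 to 97904 in mASO Scrbl. Of these 14 markers 7 rose and none fell in the siRNA arm, and 9 rose and none fell in the mASO arm; 7 and 5 were not called, and with library totals 4 rose and 2 fell, and 5 rose and 2 fell. Stellate and myofibroblast markers moved the other way, with 8 and 7 of 10 lower and 1 and 2 higher, summing to 253 to 372 CPM in siSTAT3 against 1153 to 1504 in siCntrl, and 369 to 444 in mASO STAT3 against 839 to 1725 in mASO Scrbl. Cholangiocyte markers were lower for 6 and 5 of 7 tested, with none higher. Of 10 macrophage markers 1 rose and 4 fell in the siRNA arm, and 2 rose and 4 fell in the mASO arm. Of 8 endothelial markers none rose and 4 fell, and 1 rose and 3 fell; of 9 lymphoid markers 1 rose and 1 fell, and 3 rose and none fell. Of all genes tested, 22.4% rose and 23.4% fell in the siRNA arm, and 21.3% rose and 22.5% fell in the mASO arm. With library totals 10.5% rose and 46.2% fell, and 9.7% rose and 50.5% fell. No macrophage, endothelial or lymphoid marker rose with library totals in either arm. Those that fell were 5 and 5 macrophage, 6 and 4 endothelial, and 2 and 0 lymphoid markers. Of the stellate and myofibroblast markers 0 and 1 then rose, and 8 and 7 fell. Cholangiocyte markers then had 0 and 0 higher, and 7 and 6 lower. No marker tested was at 0 in a whole group. The part of the marker shifts in the changes of the sterol genes was not tested. In bulk liver fewer cells of a type cannot be told apart from less RNA per cell.

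One control library stood apart for the sterol genes. siCntrl replicate 2 was the lowest of its group for 24 of the 28 genes, against 33.7% of all genes tested, with a median deviation of -0.48 (log2) from the group mean. Results that rest on siCntrl are therefore also given without it where it changes the call, and for Fdps and Dhcr7, whose calls it does not change. The map of levels by library shows it as the lowest siCntrl column in most rows.

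**Figure D1:**
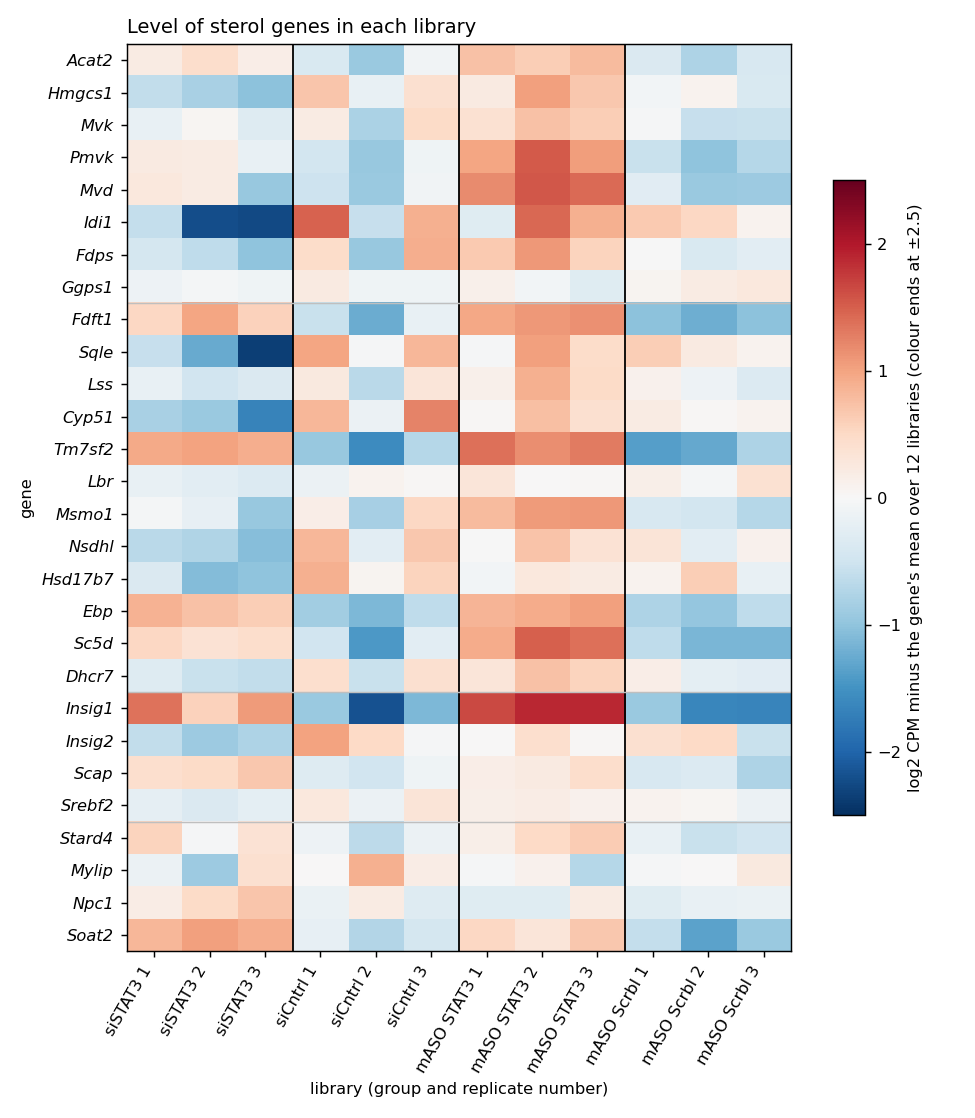
Level of each of the 28 genes (rows, by role) in each of the 12 libraries (columns), as log2 CPM minus the gene's mean over the 12 libraries; red is higher and blue lower. Insig1, Tm7sf2, Ebp and Fdft1 are red in all 6 STAT3-labelled libraries, Cyp51, Sqle and Hmgcs1 are blue in the 3 siSTAT3 libraries, and siCntrl 2 is the lowest siCntrl library for 24 genes.

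The calls in the 2 arms were unlike in count, although no gene's difference between the arms passed the edgeR test given further on. In the mASO arm 17 of the 28 genes rose (21.3% of all genes tested did) and none fell (22.5%), led by Insig1, Tm7sf2, Sc5d and Fdft1. In the siRNA arm the pathway split, with 11 genes higher (22.4% of all genes), again led by Insig1 and Tm7sf2, and 10 lower (23.4%), led by Idi1, Sqle and Cyp51. Of the 28, 10 were higher in both arms (Acat2, Pmvk, Fdft1, Tm7sf2, Ebp, Sc5d, Insig1, Scap, Stard4 and Soat2), where 17.4% of all genes were. Another 7 were lower in the siRNA arm and not called in the mASO arm (Idi1, Sqle, Cyp51, Nsdhl, Hsd17b7, Insig2 and Srebf2), against 6.44% of all genes. Hmgcs1, Fdps and Dhcr7 were lower in the siRNA arm and higher in the mASO arm, a combination found in 5 of 15720 genes (0.0318%), with 7 genes (0.0445%) called in opposite directions either way. Mvk, Mvd, Lss and Msmo1 were called higher in the mASO arm and not called in the siRNA arm, Npc1 was higher in the siRNA arm and not called in the mASO arm, and Ggps1, Lbr and Mylip were called in neither.
A gene was called where edgeR's quasi-likelihood test gave an adjusted p under 0.05 over all 15720 genes tested, and all 28 genes were tested. In the siRNA arm 45.7% of all genes were called, and the shares of the 28 genes were 39.3% higher and 35.7% lower. Their median log2 fold change was -0.24, against -0.04 for all genes tested, and was -0.12 without siCntrl 3 and -0.16 without siSTAT3 3. In the mASO arm 43.8% of all genes were called, and the shares of the 28 genes were 60.7% higher and 0% lower. The median there was 0.78, against -0.05 for all genes. The 3 libraries of a group did not overlap the 3 of its control for 18 genes in each arm, or 64.3%, against 53% of all genes in the siRNA arm and 56.8% in the mASO arm. Scaling by library totals in place of TMM shifted all genes down, to a median of -0.53 in the siRNA arm and -0.63 in the mASO arm, with medians of -0.72 and 0.20 for the 28 genes. It left 6 genes higher and 16 lower in the siRNA arm, where 10.5% of all genes were higher and 46.2% lower, and 10 higher and 5 lower in the mASO arm, where 9.7% and 50.5% were. Without siCntrl replicate 2 the siRNA arm had 9 higher and 12 lower, where 18.3% and 19% of all genes were.

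**Figure D2:**
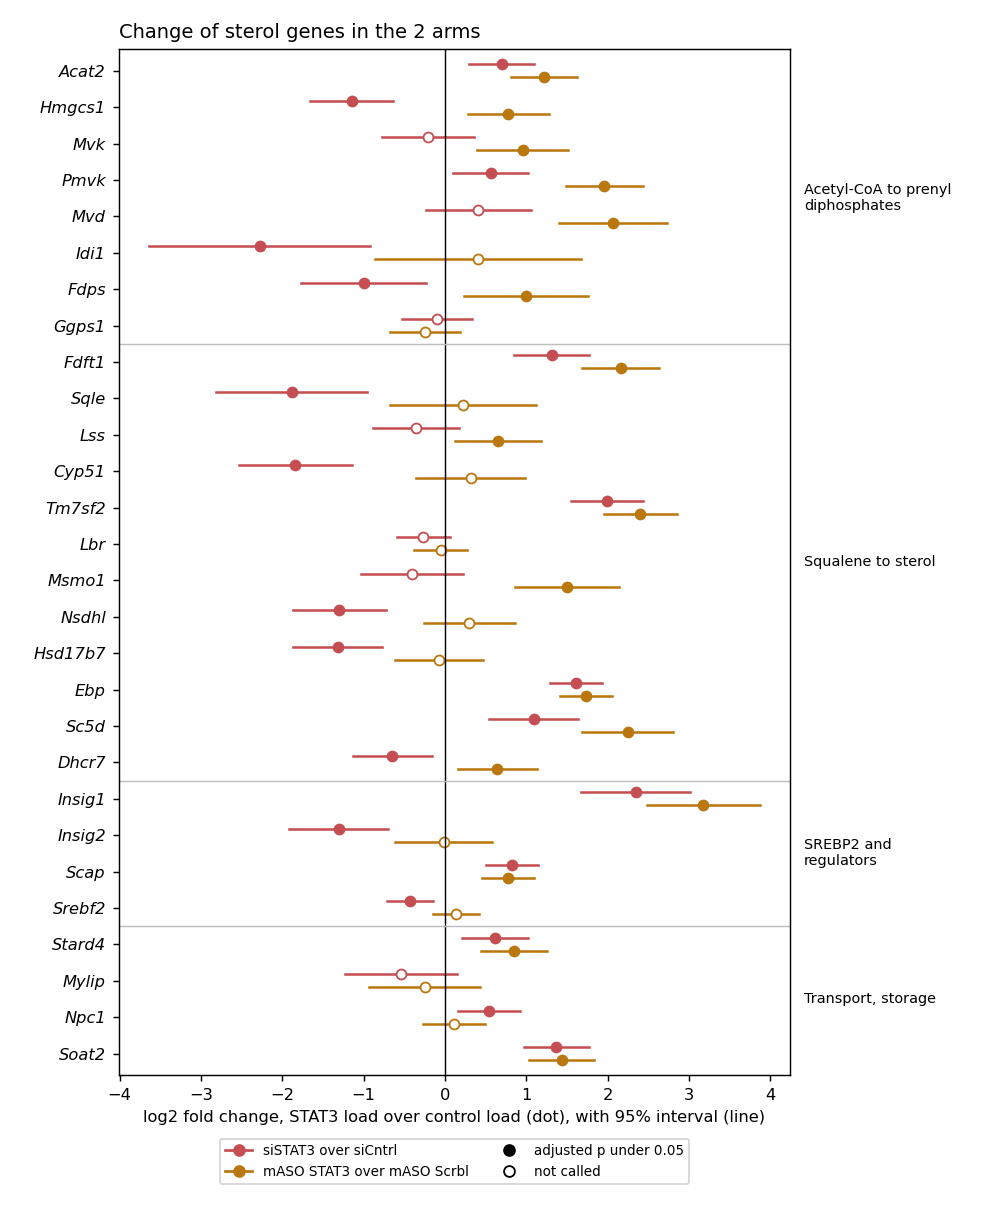
Log2 fold change of each of the 28 genes in the siRNA arm (siSTAT3 over siCntrl, red) and the mASO arm (mASO STAT3 over mASO Scrbl, ochre), with 95% intervals from 3 libraries a group; filled dots passed the edgeR test and open dots did not. All 17 filled mASO dots lie to the right of 0, while 11 filled siRNA dots lie to the right and 10 to the left.

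The early pathway runs from acetyl-CoA to the prenyl diphosphates and has 8 members. Of these, 2 rose and 3 fell in the siRNA arm, where 22.4% and 23.4% of all genes did. In the mASO arm 6 rose and none fell, where 21.3% and 22.5% of all genes did. Hmgcs1, the cytosolic synthase that makes HMG-CoA, had 123, 107 and 92.7 CPM in siSTAT3, against 304, 165 and 249 CPM in siCntrl. In the other arm it had 220.3, 383 and 302 CPM in mASO STAT3, against 179.6, 202 and 146 CPM in mASO Scrbl. All 3 siSTAT3 libraries lay below all siCntrl libraries and all 3 mASO STAT3 libraries lay above all mASO Scrbl libraries. The log2 fold change was -1.15 ± 0.24 (SE) in the siRNA arm (edgeR adjusted p = 0.00142), against 0.78 ± 0.23 for the mASO arm (edgeR adjusted p = 0.0154). The mASO call was lost without mASO STAT3 replicate 2, without mASO Scrbl replicate 3 and with library totals, with a highest adjusted p of 0.445.
Fdps, which makes farnesyl diphosphate at the branch toward sterols and prenylated proteins, had 92.0, 80.8 and 62.05 CPM in siSTAT3, against 173, 64.3 and 234 CPM in siCntrl, so that siCntrl 2 lay within the siSTAT3 range. It had 197, 265 and 185 CPM in mASO STAT3, against 124, 95.8 and 104 CPM in mASO Scrbl, without overlap. The log2 fold changes were -1.0 ± 0.35 (edgeR adjusted p = 0.035) and 0.99 ± 0.35 (edgeR adjusted p = 0.0372). Neither call was firm, as the siRNA call was lost in 8 and the mASO call also in 8 of 14 alternatives. The siRNA call was lost without siCntrl 1 or siCntrl 3, and also without siSTAT3 2 or siSTAT3 3. Without siCntrl 2 it was kept, at -1.38 (edgeR adjusted p = 2.26e-04).
Idi1, which isomerises isopentenyl diphosphate, averaged 2.80 ± 2.04 CPM in siSTAT3 against 13.8 ± 8.27 CPM in siCntrl (SD, n = 3 each). The groups nearly touched, with siSTAT3 replicate 1 at 5.16 CPM and siCntrl replicate 2 at 5.23 CPM. Counts were low, at 64 and 52 in siSTAT3 replicates 2 and 3. The log2 fold change of Idi1 in the siRNA arm was -2.28 ± 0.62 (edgeR adjusted p = 0.0112), the lowest of the 28 genes. That call was lost without siSTAT3 replicate 2 (edgeR adjusted p = 0.0583). In the mASO arm Idi1 had 13.9 ± 7.42 CPM in mASO STAT3, against 10.5 ± 2.06 CPM in mASO Scrbl, with overlap and no call (0.41 ± 0.58, edgeR adjusted p = 0.601).
Acat2, here the cytosolic thiolase that joins acetyl-CoA units, had 68.2, 80.9 and 66.6 CPM in siSTAT3, against 45.6, 31.2 and 56.1 CPM in siCntrl, and 98.4, 90.4 and 103 CPM in mASO STAT3, against 46.2, 34.6 and 44.9 CPM in mASO Scrbl. The groups did not overlap in either arm, and the log2 fold changes were 0.70 ± 0.19 (edgeR adjusted p = 0.00752) and 1.21 ± 0.19 (edgeR adjusted p = 1.62e-04). Pmvk, the kinase that adds the second phosphate to mevalonate, had 50.3, 49.4 and 37.8 CPM in siSTAT3, against 31.1, 22.1 and 39.8 CPM in siCntrl, with overlap. It had 84.4, 124 and 88.3 CPM in mASO STAT3, against 29.1, 21.4 and 26.05 CPM in mASO Scrbl, without overlap. Pmvk changed by 0.56 ± 0.21 (edgeR adjusted p = 0.0453) and by 1.96 ± 0.22 (edgeR adjusted p = 1.19e-05); the siRNA call was lost in 8 of 14 alternatives, among them without siCntrl 2 (0.37, edgeR adjusted p = 0.182).
The decarboxylase gene Mvd had 26.8, 25.7 and 11.6 CPM in siSTAT3, against 15.7, 11.7 and 21.0 CPM in siCntrl, and 50.7, 66.0 and 59.7 CPM in mASO STAT3, against 18.5, 11.8 and 11.97 CPM in mASO Scrbl. The mASO groups were apart and the siRNA groups overlapped, with log2 fold changes of 0.41 ± 0.30 in the siRNA arm (edgeR adjusted p = 0.289; called higher without siSTAT3 3) and of 2.06 ± 0.31 in the mASO arm (edgeR adjusted p = 1.59e-04). The mevalonate kinase gene Mvk gave -0.21 ± 0.26 (edgeR adjusted p = 0.536) and 0.95 ± 0.26 (edgeR adjusted p = 0.00983), the mASO call being lost with library totals, which also ended the siRNA call of Acat2 and called Mvk lower in the siRNA arm. Ggps1, whose product makes the longer diphosphate used for protein prenylation rather than sterols, averaged 3.68 ± 0.118 CPM in siSTAT3 and 3.95 ± 0.541 in siCntrl, 3.74 ± 0.574 in mASO STAT3 and 4.44 ± 0.306 in mASO Scrbl (SD, n = 3 each), and was called in neither arm. With library totals Ggps1 was called lower in both (-0.59, edgeR adjusted p = 0.0256, and -0.82, edgeR adjusted p = 0.00366). Ggps1 overlaps Arid4b on the opposite strand, and the use of strand in counting is not known. Arid4b averaged 17.6 CPM in siSTAT3 and 12.3 in siCntrl, and 15.4 in mASO STAT3 and 14.5 in mASO Scrbl. Arid4b rose by 0.51 ± 0.17 in the siRNA arm (edgeR adjusted p = 0.0218) and gave 0.09 ± 0.17 in the mASO arm, not called.

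From squalene to cholesterol the list holds 12 genes. In the siRNA arm 4 rose and 5 fell, against 22.4% and 23.4% of all genes. In the mASO arm 7 rose and none fell, against 21.3% and 22.5%. Fdft1, squalene synthase, had 206, 286 and 216 CPM in siSTAT3, against 97.8, 61.1 and 126 CPM in siCntrl, and 283, 307 and 317 CPM in mASO STAT3, against 70.6, 61.7 and 71.0 CPM in mASO Scrbl. The STAT3 libraries lay above the control libraries in both arms, with log2 fold changes of 1.31 ± 0.21 (edgeR adjusted p = 2.44e-04) and 2.16 ± 0.22 (edgeR adjusted p = 4.66e-06). An exon of Fdft1 overlaps Ctsb on the opposite strand in the GENCODE annotation, and the sources used here do not say whether counting used strand; Ctsb gave -0.06 ± 0.15 and 0.04 ± 0.15, neither called.
Sqle, squalene epoxidase and the step that follows, had 28.6, 17.9 and 8.39 CPM in siSTAT3, against 85.0, 42.0 and 76.3 CPM in siCntrl. It had 42.0, 87.3 and 59.3 CPM in mASO STAT3, against 66.1, 50.3 and 45.4 CPM in mASO Scrbl. The siRNA groups were apart (-1.88 ± 0.42, edgeR adjusted p = 0.00378), and the mASO groups overlapped (0.22 ± 0.41, edgeR adjusted p = 0.691).
Cyp51, the cytochrome P450 that demethylates lanosterol, showed the same split, with 57.6, 53.0 and 31.5 CPM in siSTAT3 against 179, 91.5 and 239 CPM in siCntrl, and 103, 171 and 133 CPM in mASO STAT3 against 116, 103 and 108 CPM in mASO Scrbl. No siSTAT3 library reached the lowest siCntrl library, whereas the mASO groups overlapped. The values were -1.84 ± 0.32 (edgeR adjusted p = 5.10e-04) and 0.31 ± 0.31 (edgeR adjusted p = 0.436). Cyp51 overlaps Akap9 on the opposite strand, and Akap9 gave 0.02 ± 0.16 and -0.39 ± 0.16, neither called.
Nsdhl, a dehydrogenase that helps strip methyl groups from the sterol ring, had 27.3, 26.0 and 20.9 CPM in siSTAT3, against 77.1, 36.2 and 69.5 CPM in siCntrl, and 43.2, 71.0 and 55.6 CPM in mASO STAT3, against 54.7, 36.4 and 47.0 CPM in mASO Scrbl. The siRNA groups did not overlap (-1.30 ± 0.26, edgeR adjusted p = 0.00145) and the mASO groups did (0.30 ± 0.26, edgeR adjusted p = 0.377). Hsd17b7, the keto-reductase of the same step, averaged 25.2 ± 7.4 CPM in siSTAT3 and 62.9 ± 17.3 in siCntrl, and 47.7 ± 5.47 in mASO STAT3 and 50.3 ± 14.6 in mASO Scrbl (SD, n = 3 each). Its log2 fold changes were -1.32 ± 0.25 (edgeR adjusted p = 9.53e-04) and -0.07 ± 0.25 (edgeR adjusted p = 0.832; -0.65, called lower, with library totals). Msmo1, the methyl sterol oxidase that acts before them, was called in the other arm: it had 123, 111 and 66.1 CPM in siSTAT3, against 142, 71.9 and 183 CPM in siCntrl, with overlap (-0.41 ± 0.29, edgeR adjusted p = 0.271). Msmo1 had 221, 266 and 269 CPM in mASO STAT3, against 96.6, 93.4 and 77.7 CPM in mASO Scrbl, without overlap (1.5 ± 0.29, edgeR adjusted p = 0.00123). Without siCntrl replicate 2 both Msmo1 (-0.71, edgeR adjusted p = 0.0239) and Lss (-0.62, edgeR adjusted p = 0.0268) were called lower in the siRNA arm, as they were with library totals.
Tm7sf2, one of a pair of reductases for the product of Cyp51, had 111, 115 and 108 CPM in siSTAT3, against 29.7, 19.2 and 35.0 CPM in siCntrl, and 149, 128 and 141 CPM in mASO STAT3, against 22.1, 23.6 and 33.8 CPM in mASO Scrbl. Every STAT3-labelled library lay far above the highest control library of its arm, and the log2 fold changes were 1.99 ± 0.21 (edgeR adjusted p = 5.62e-06) and 2.40 ± 0.21 (edgeR adjusted p = 1.26e-06). Tm7sf2 shares exon sequence with Vps51 on the same strand, and Vps51 rose by 0.46 ± 0.14 in the siRNA arm (edgeR adjusted p = 0.0158) and gave 0.03 ± 0.14 in the mASO arm. The other reductase gene, Lbr, which also encodes an inner nuclear membrane protein, stood between 10.2 and 17.1 CPM in all 12 libraries. It had 11.4, 10.8 and 10.2 CPM in siSTAT3, against 11.8, 13.9 and 13.3 CPM in siCntrl, and 15.97, 13.2 and 13.2 CPM in mASO STAT3, against 14.3, 12.6 and 17.1 CPM in mASO Scrbl. The siSTAT3 libraries lay just under the siCntrl libraries, but neither arm passed the test (-0.27 ± 0.15, edgeR adjusted p = 0.166, and -0.06 ± 0.15, edgeR adjusted p = 0.789). With library totals Lbr was called lower in both (-0.77, edgeR adjusted p = 0.0014, and -0.64, edgeR adjusted p = 0.00403).
Ebp, the sterol isomerase, had 325, 294 and 272 CPM in siSTAT3 against 96.7, 81.8 and 114 CPM in siCntrl, and 320.5, 339.7 and 362 CPM in mASO STAT3 against 103, 90.6 and 114 CPM in mASO Scrbl. The groups were far apart in each arm, at 1.61 ± 0.15 (edgeR adjusted p = 2.01e-06) and 1.73 ± 0.15 (edgeR adjusted p = 1.09e-06). Sc5d, the desaturase that follows, had 165, 147 and 156 CPM in siSTAT3, against 82.0, 42.6 and 94.9 CPM in siCntrl, and 218, 324 and 298 CPM in mASO STAT3, against 73.7, 51.6 and 51.8 CPM in mASO Scrbl. No groups overlapped within an arm, and the changes were 1.09 ± 0.25 (edgeR adjusted p = 0.00348) and 2.24 ± 0.26 (edgeR adjusted p = 1.97e-05).
Dhcr7, the reductase of the last step, had 59.97, 51.1 and 48.9 CPM in siSTAT3, against 100.2, 51.4 and 99.4 CPM in siCntrl, where siCntrl 2 lay among the siSTAT3 values. It had 92.2, 124 and 111 CPM in mASO STAT3, against 84.4, 63.8 and 61.4 CPM in mASO Scrbl, without overlap. Its changes of -0.65 ± 0.22 (edgeR adjusted p = 0.0299) and 0.64 ± 0.22 (edgeR adjusted p = 0.0322) were lost in 6 and 5 of 14 alternatives. The siRNA call of Dhcr7 was lost without siCntrl 1 or siCntrl 3, and also without siSTAT3 2 or siSTAT3 3. Without siCntrl 2 it was kept, at -0.91 (edgeR adjusted p = 0.00112). Lss, lanosterol synthase, gave -0.36 ± 0.24 (edgeR adjusted p = 0.249) and 0.65 ± 0.24 (edgeR adjusted p = 0.0453), the mASO call being lost in 8 of 14 alternatives.

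**Figure D3:**
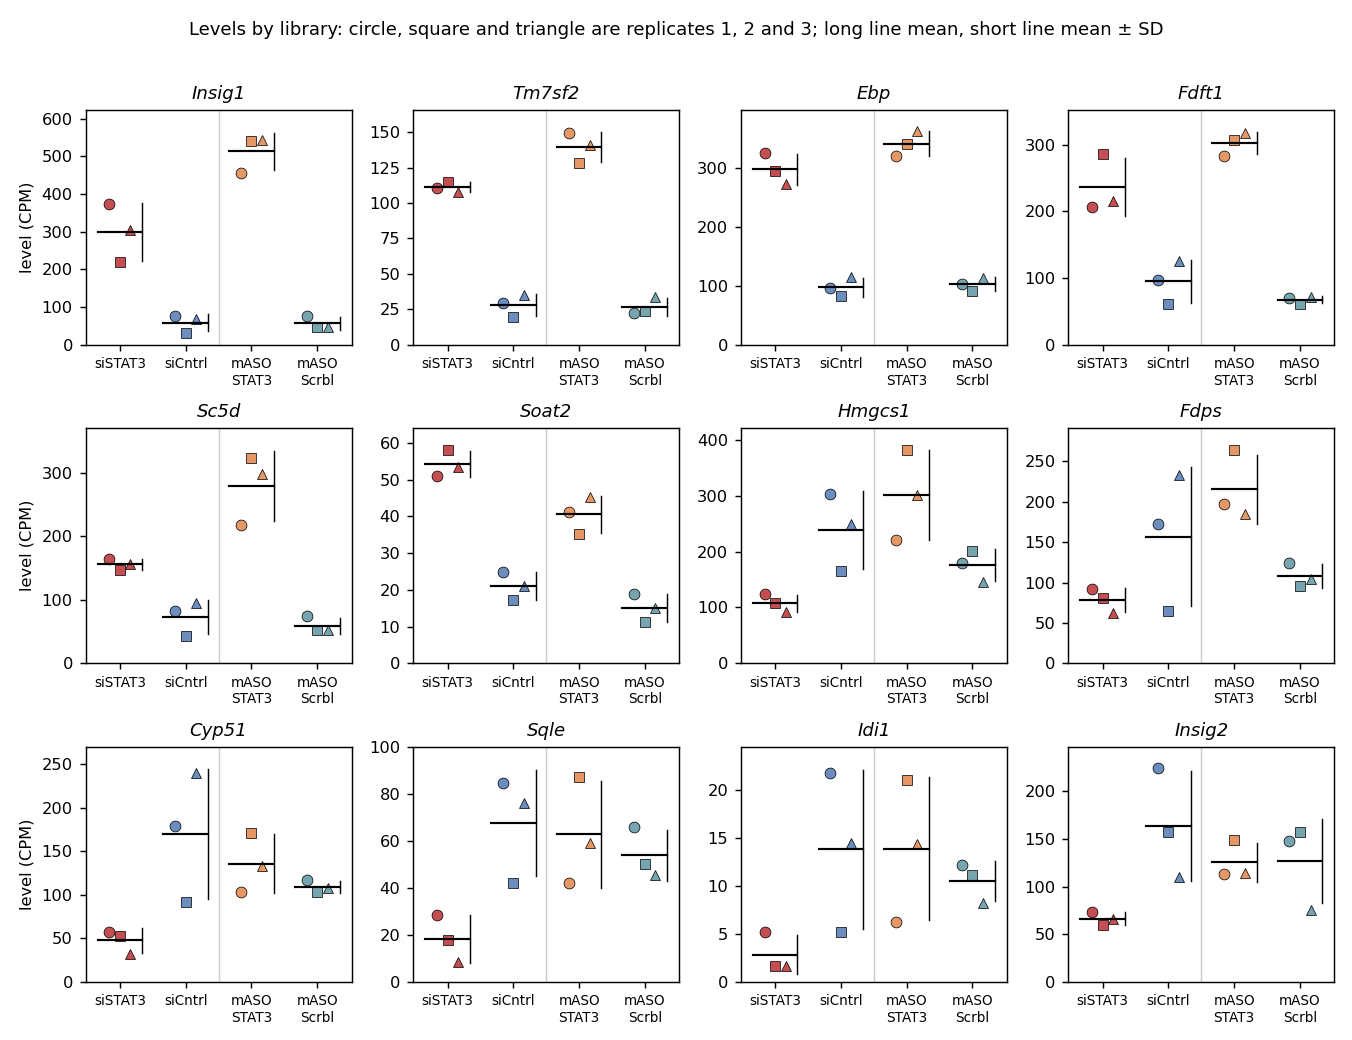
CPM (linear axes from 0) of 12 of the genes in every library of the 4 groups; symbols are replicate numbers, the long line is the mean and the short line the mean ± SD of 3 libraries. Insig1, Tm7sf2, Ebp, Fdft1, Sc5d and Soat2 are higher in the STAT3-labelled group of both arms, while Hmgcs1, Cyp51, Sqle, Idi1 and Insig2 have the lowest of their 4 means in siSTAT3.

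Of the 4 genes of the SREBP2 control system, 2 rose and 2 fell in the siRNA arm (22.4% and 23.4% of all genes). In the mASO arm 2 rose and none fell (21.3% and 22.5% of all genes). Srebf2 itself, the gene of SREBP2, had 49.4, 45.2 and 48.7 CPM in siSTAT3, against 69.3, 52.2 and 72.2 CPM in siCntrl, and 63.8, 65.9 and 62.0 CPM in mASO STAT3, against 61.8, 60.1 and 52.1 CPM in mASO Scrbl. The siSTAT3 libraries all lay below and the mASO STAT3 libraries all lay above their controls, the mASO margin being narrow. Srebf2 fell in the siRNA arm (-0.43 ± 0.13, edgeR adjusted p = 0.0154), a call lost without siCntrl 1 or without siCntrl 3, with adjusted p up to 0.0656, and was not called in the mASO arm (0.14 ± 0.13, edgeR adjusted p = 0.414; -0.44, called lower, with library totals).
Insig1 had 373, 218 and 305 CPM in siSTAT3, against 77.1, 32.4 and 67.0 CPM in siCntrl. It had 456, 539.9 and 543 CPM in mASO STAT3, against 76.4, 47.0 and 46.7 CPM in mASO Scrbl. These were the widest gaps among the 28 genes in each arm, at 2.34 ± 0.31 (edgeR adjusted p = 6.13e-05) and 3.18 ± 0.32 (edgeR adjusted p = 7.00e-06).
Insig2, its relative, had 73.0, 59.8 and 65.9 CPM in siSTAT3, against 225, 157 and 110.1 CPM in siCntrl, and 113, 149.5 and 115 CPM in mASO STAT3, against 148, 157 and 75.7 CPM in mASO Scrbl. The siRNA groups did not overlap and the mASO groups did. Insig2 fell by 1.31 ± 0.28 on the log2 scale in the siRNA arm (edgeR adjusted p = 0.00217) and gave -0.01 ± 0.28 in the mASO arm (edgeR adjusted p = 0.973). Scap, the escort, averaged 126 ± 12.2 CPM in siSTAT3 and 71.1 ± 9.20 in siCntrl, and 106 ± 10.98 in mASO STAT3 and 62.0 ± 9.84 in mASO Scrbl (SD, n = 3 each). It rose in both, by 0.83 ± 0.15 (edgeR adjusted p = 5.05e-04) and 0.78 ± 0.15 (edgeR adjusted p = 8.39e-04); library totals ended both calls.

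Among the 4 transport and storage genes 3 rose in the siRNA arm and 2 in the mASO arm, and none fell. Of all genes, 22.4% rose and 23.4% fell in the siRNA arm, and 21.3% rose and 22.5% fell in the mASO arm. Soat2, which esterifies cholesterol in hepatocytes, had 51.05, 58.0 and 53.5 CPM in siSTAT3, against 24.9, 17.2 and 20.9 CPM in siCntrl, and 41.1, 35.2 and 45.3 CPM in mASO STAT3, against 18.8, 11.3 and 14.99 CPM in mASO Scrbl. Groups did not overlap in either arm, with 1.37 ± 0.19 (edgeR adjusted p = 5.55e-05) and 1.43 ± 0.19 (edgeR adjusted p = 3.91e-05). Stard4, a cytosolic sterol carrier, rose by 0.61 ± 0.19 (edgeR adjusted p = 0.0168) and 0.84 ± 0.19 (edgeR adjusted p = 0.00266); the siRNA call was lost without siCntrl 2 or siSTAT3 1 (0.46, edgeR adjusted p = 0.0796, without siCntrl 2), and both with library totals. Npc1, which exports cholesterol from lysosomes, averaged 123 ± 21.3 CPM in siSTAT3 and 84.8 ± 16.2 in siCntrl, and 82.8 ± 17.3 in mASO STAT3 and 76.6 ± 3.73 in mASO Scrbl (SD, n = 3 each). It was called in the siRNA arm (0.54 ± 0.18, edgeR adjusted p = 0.0233, lost without siCntrl 1, siCntrl 3 or siSTAT3 3 and with library totals) and not in the mASO arm (0.11 ± 0.18, edgeR adjusted p = 0.634; -0.47, called lower, with library totals). Mylip, a ubiquitin ligase that marks lipoprotein receptors for breakdown, gave -0.54 ± 0.32 (edgeR adjusted p = 0.182; called lower with library totals and without siSTAT3 3) and -0.25 ± 0.32 (edgeR adjusted p = 0.554).

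Whether a gene's change differed between the arms was tested directly, as the siRNA log2 fold change minus the mASO log2 fold change in the same fit. No member passed by edgeR (0 of 28), where 0.00636% of all genes did (1 of 15720). The smallest adjusted p was that of Hmgcs1, 0.199, for a difference of -1.93 ± 0.33 (95% interval -2.65 to -1.21). The values were mostly of 1 sign: 25 of the 28, or 89.3%, were negative, against 48.8% of all genes, and their median was -1.08 against 0.01. An unadjusted p under 0.05 was found for 17 of the 28 (7.39% of all genes), all of them negative (4.45% of all genes). DESeq2's Wald test on the same counts called 9 genes lower in the siRNA arm relative to the mASO arm (Hmgcs1, Pmvk, Mvd, Fdps, Sqle, Cyp51, Msmo1, Nsdhl and Dhcr7), out of 44 such genes among 15720 (0.28%). Without siCntrl replicate 2, edgeR called 6 (Hmgcs1, Fdps, Cyp51, Msmo1, Nsdhl and Dhcr7) out of 8 among 16012 genes (0.05%), and limma voom called none with all 12 libraries.
The enzymes of both synthesis segments had the most negative values. Cyp51 gave -2.15 ± 0.44 (95% interval -3.11 to -1.20; edgeR adjusted p = 0.371, DESeq2 adjusted p = 9.67e-04). Sqle gave -2.10 ± 0.58 (-3.39 to -0.82; edgeR adjusted p = 0.589, DESeq2 adjusted p = 0.0283). Fdps gave -2.0 ± 0.50 (-3.08 to -0.91; edgeR adjusted p = 0.53, DESeq2 adjusted p = 0.0164), and Msmo1 -1.91 ± 0.41 (-2.80 to -1.02; edgeR adjusted p = 0.441, DESeq2 adjusted p = 0.00374). Idi1 had the most negative value and the widest interval, -2.68 ± 0.84 (-4.53 to -0.84; edgeR adjusted p = 0.615).
The values of Ebp, Soat2 and Scap were near 0, with intervals that span both signs. Ebp differed by -0.12 ± 0.20 (95% interval -0.56 to 0.31), Soat2 by -0.06 ± 0.26 (-0.62 to 0.49) and Scap by 0.05 ± 0.21 (-0.40 to 0.50), so differences past these bounds lie outside the intervals while smaller ones do not. For Tm7sf2 the value was -0.41 ± 0.28 (-1.01 to 0.20) and for Insig1 -0.83 ± 0.42 (-1.74 to 0.07). Summed hepatocyte markers overlapped between siSTAT3 and mASO STAT3 (154887 to 166893 and 135698 to 181226 CPM) and between the control groups, as given above. In the difference of the arms, 9 of 10 stellate and myofibroblast markers and 9 of 10 macrophage markers were negative (48.8% of all genes). So were 7 of 8 endothelial, 8 of 14 hepatocyte, 7 of 9 lymphoid and 3 of 7 cholangiocyte markers. The medians were -0.42, -0.38, -0.40, -0.09, -0.65 and 0.17, in that order. No marker was called by edgeR. An unadjusted edgeR p under 0.05 was found for 4 of 10 stellate and myofibroblast markers, all negative, against 7.39% of all genes. It was also found for 2 of 9 lymphoid, 2 of 14 hepatocyte and 1 of 7 cholangiocyte markers, and for no macrophage or endothelial marker. The part of these marker shifts in the differences of the sterol genes was not tested.

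**Figure D4:**
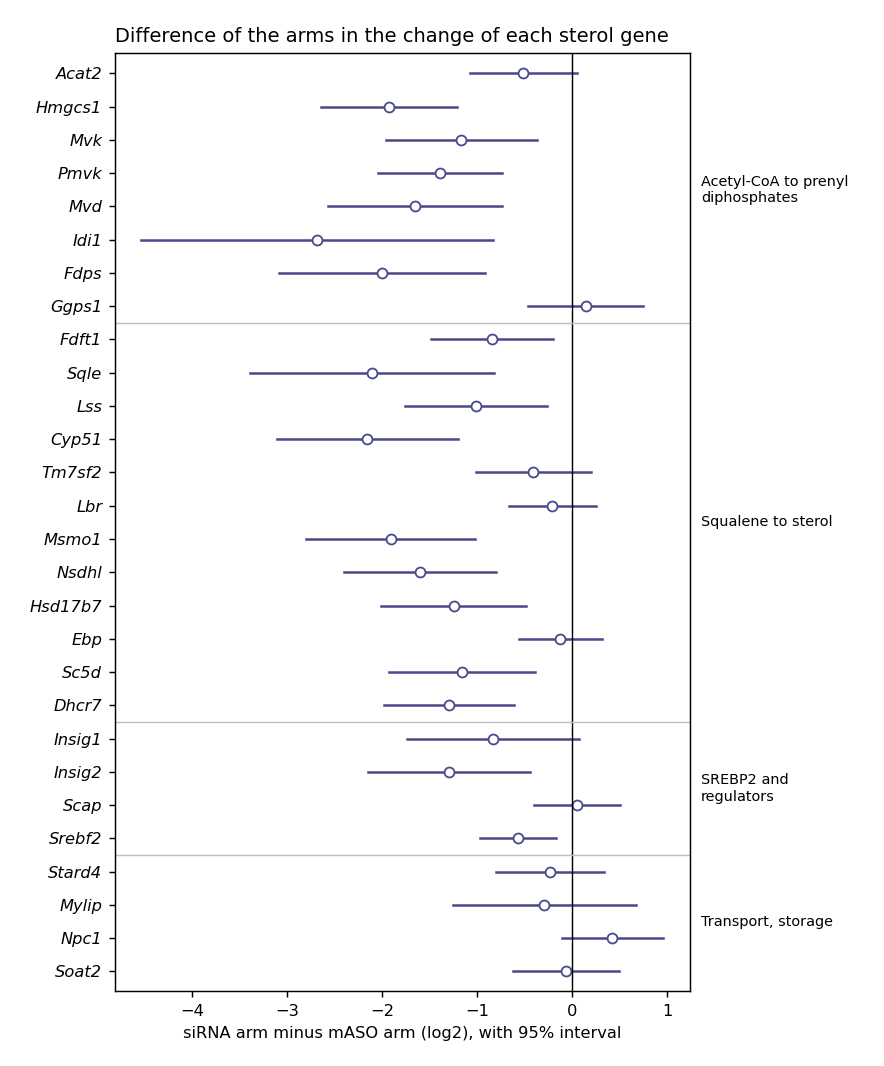
Difference between the arms in the log2 fold change of each of the 28 genes (siRNA arm minus mASO arm) with its 95% interval, from 3 libraries in each of 4 groups; open dots did not pass the edgeR test, and none passed. The dots lie to the left of 0 for 25 genes, and only Ggps1, Scap and Npc1 lie to the right.

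The same contrast can be read from the groups. Between the loads against STAT3, mASO STAT3 over siSTAT3, no member was called by edgeR, as was no gene of 15720 (0%). Of the 28, 24 were higher in mASO STAT3, 21 had an unadjusted p under 0.05 against 5.85% of all genes, and the median log2 value was 0.81 against 0.00 for all genes; the 3 libraries of the groups did not overlap for 21 genes, or 75%, against 11.2% of all genes. Hmgcs1 had the smallest adjusted p, 0.0793, at 1.48 ± 0.24, and DESeq2 called 9 of the 28 higher, against 0.375% of all genes. Between the controls, mASO Scrbl over siCntrl, no member was called by edgeR where 0.0127% of all genes were, DESeq2 and limma voom also called none, and 2 of the 28 had an unadjusted p under 0.05, against 7.85% of all genes. The median was -0.30 against 0.01, with 25 of 28 negative against 48.2% of all genes. Single siCntrl libraries moved these values: without siCntrl 2, 12 of the 28 had an unadjusted p under 0.05 and the median was -0.44, while the median was -0.16 without siCntrl 1, with 22 negative, and -0.14 without siCntrl 3, with 20 negative. With library totals it was -0.17, with 20 negative, and 1 of the 28 had an unadjusted p under 0.05. These contrasts share their libraries with the arms and add no independent evidence.

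Ratios of gene pairs within a library do not depend on the scaling between libraries. They are given per library without a test. For Tm7sf2 to Lbr, which encode the alternative reductases, the count ratio was 9.73, 10.6 and 10.5 in siSTAT3, against 2.52, 1.38 and 2.62 in siCntrl, and 9.34, 9.73 and 10.7 in mASO STAT3, against 1.54, 1.87 and 1.98 in mASO Scrbl. The STAT3 groups of both arms reached overlapping ratios, and neither overlapped its control. For Insig1 to Insig2 the ratio was 5.11, 3.65 and 4.63 in siSTAT3, against 0.343, 0.206 and 0.609 in siCntrl, and 4.04, 3.61 and 4.74 in mASO STAT3, against 0.517, 0.30 and 0.618 in mASO Scrbl. Insig1 counts thus exceeded Insig2 counts in all 6 STAT3-labelled libraries and in none of the 6 control libraries, also where Insig2 itself was not called. Fdft1 to Sqle, neighbouring steps and a pair chosen after their values were seen, gave 7.20, 15.96 and 25.7 in siSTAT3, against 1.15, 1.46 and 1.65 in siCntrl, and 6.74, 3.52 and 5.34 in mASO STAT3, against 1.07, 1.23 and 1.56 in mASO Scrbl.

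**Figure D5:**
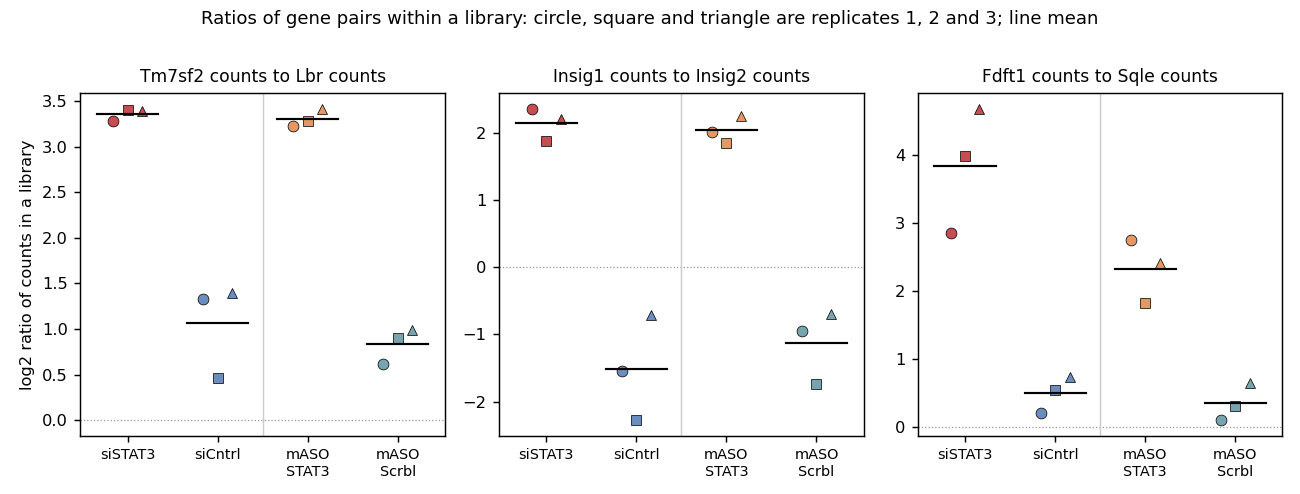
Log2 ratio of raw counts of 3 gene pairs within each library, with symbols for replicate numbers and a line at the group mean. Mean log2 ratios of Insig1 to Insig2 are 2.14 in siSTAT3 and -1.51 in siCntrl, and 2.04 in mASO STAT3 and -1.13 in mASO Scrbl, and no STAT3 group overlaps its control in any of the pairs.

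Of 13 genes that supply acetyl-CoA and electrons to the pathway, 8 rose and none fell in the siRNA arm and 12 rose and none fell in the mASO arm, with medians of 0.71 and 0.78. With library totals the counts were 5 higher and 2 lower, and 6 higher and none lower. Of all genes, 22.4% rose and 23.4% fell in the siRNA arm, and 21.3% rose and 22.5% fell in the mASO arm. With library totals 10.5% rose and 46.2% fell, and 9.7% rose and 50.5% fell. The counts of each list below are to be read beside these shares of all genes. Por, the reductase that passes electrons to Cyp51 and Sqle, was higher in both (1.87 ± 0.18, edgeR adjusted p = 2.76e-06, and 2.04 ± 0.18, edgeR adjusted p = 1.28e-06), whereas those enzymes were not. Acss2, which makes acetyl-CoA from acetate, changed by 1.15 ± 0.20 (edgeR adjusted p = 3.94e-04) and 2.09 ± 0.20 (edgeR adjusted p = 3.31e-06). Cyb5a, a cytochrome that donates electrons to sterol enzymes, gave 1.57 ± 0.19 and 1.58 ± 0.19, and Tmem97, a sterol-regulated membrane protein, 0.90 ± 0.16 and 1.23 ± 0.17, all called.
Of 18 genes for SREBP transport, cleavage and sterol-driven degradation, 8 rose and 4 fell in the siRNA arm. In the mASO arm 7 rose and 4 fell. The 4 that fell in each arm were near the share of all genes. With library totals 2 rose and 10 fell, and none rose and 10 fell. Srebf1, the gene of the related factor SREBP1, rose by 1.30 ± 0.24 (edgeR adjusted p = 7.22e-04) and 1.01 ± 0.24 (edgeR adjusted p = 0.00431), the mASO call being lost with library totals. Rnf145, a sterol-responsive ubiquitin ligase, rose by 1.04 ± 0.19 and 0.99 ± 0.19, and Sar1b, a GTPase of the vesicles that leave the endoplasmic reticulum, by 0.85 ± 0.17 and 0.99 ± 0.17; library totals ended the mASO call of Rnf145 and both calls of Sar1b. The genes that fell were Mbtps2, Ube2g2, Vcp and Sec24d in the siRNA arm and Mbtps2, Vcp, Sec24b and Sec24d in the mASO arm; Mbtps2 encodes the second protease that frees SREBP.
Of 11 genes of the sterol-sensing LXR receptors and of efflux, 6 rose and 1 (Tspo) fell in the siRNA arm, and 5 rose and none fell in the mASO arm (Nr1h2, Abcg5, Abcg8, Lpcat3 and Lcat); with library totals 4 rose and 5 fell, and 3 rose and 3 fell. Abcg5 and Abcg8, which together pump sterol into bile, changed by 1.59 ± 0.22 and 1.54 ± 0.24 in the siRNA arm and by 1.77 ± 0.23 and 1.47 ± 0.24 in the mASO arm. Lcat, which esterifies cholesterol in plasma lipoproteins, gave 1.31 ± 0.15 and 1.67 ± 0.15. Of 20 genes of sterol transfer and storage, 19 were tested; 7 rose and 3 fell in the siRNA arm, and 9 rose and 2 fell in the mASO arm, against 4 and 11, and 4 and 10, with library totals. Stard5, another sterol carrier, changed by 1.12 ± 0.14 and 1.15 ± 0.14, and Ces1d, a carboxylesterase, by 3.03 ± 0.43 and 2.75 ± 0.42. Of 21 genes that use prenyl groups for dolichol, ubiquinone or protein prenylation, 4 rose and 5 fell in the siRNA arm. In the mASO arm 3 rose and 5 fell, and the medians were -0.30 and -0.31. These counts were near the shares of all genes. With library totals none rose, and 13 and 16 fell, where 46.2% and 50.5% of all genes fell. Fntb, a subunit of the farnesyl transferase, fell by 0.63 ± 0.18 and 1.07 ± 0.18 on the log2 scale, and Coq6, of ubiquinone synthesis, rose by 0.56 ± 0.13 and 0.65 ± 0.13, both calls ending with library totals. No gene of these lists was called by edgeR in the difference of the arms, where 0.00636% of all genes were. An unadjusted edgeR p under 0.05 was found for 3 of 13 supply genes, against 7.39% of all genes. It was found for 1 of 18 SREBP genes and 1 of 11 LXR genes, near that share. None of the 19 transfer and storage genes tested or the 21 prenyl genes had one.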

How the data were processed

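Gene counts per library were deposited by the authors as whole numbers for 25540 gene symbols and 12 mouse liver libraries, 3 in each of 4 groups. Per the submitters' processing notes TopHat and Cufflinks were used, and per the labels' protocols the mRNA kit was stranded; the sources used here do not name the counter, the build or the use of strand. The authors' normalized table was not used, and protein sequences were not used here.

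From the deposited counts, edgeR 4.0.16 in R 4.3.3 fitted all 12 libraries in 1 model by group, with TMM scaling, robust quasi-likelihood tests and Benjamini-Hochberg adjustment over all genes tested. The filter filterByExpr, with a minimum count of 10 and a minimum total of 15, kept 15720 genes and removed 9820; all 28 members were kept. A gene was called at an adjusted p under 0.05. Standard errors came from the F statistic, and intervals are 95%. The edgeR fit with TMM scaling was tested on simulated counts for both arms and their difference, and the alternatives were not. The simulation changed a small share of genes, as many up as down, unlike these data. It therefore cannot show which scaling suits them. Alternatives were library totals, DESeq2 size factors, the DESeq2 1.42.0 Wald test, limma 3.58.1 voom, no filter, a stricter filter, the compared libraries alone, a replicate block and leaving out each library.

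Replicates of a group differed beyond counting noise, with a chi-square per degree of freedom of 49.1 to 208. Same-numbered libraries had residual correlations of -0.24 to 0.19. The labels do not state that the numbers pair libraries, and weak correlations with 3 libraries a group cannot exclude pairing. Promoters came from the RefSeq table of GRCm38.p6, gene overlaps from a GENCODE annotation. Members and lists were chosen with earlier results of these data known. Values per library are given for members called in both arms with a log2 fold change over 1 in size in either, for those whose change differed between the arms (by DESeq2, since edgeR called none), and for Srebf2, Insig1, Insig2, Tm7sf2 and Lbr; of each companion list up to 4 genes with the smallest p are named, and any list of 5 or fewer called genes in full.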

Additional observations from a re-analysis of the deposited data

Results flagged for a closer look

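Hmgcs1 and Srebf2 stood out because all 3 siSTAT3 libraries lay below all 3 siCntrl libraries while all 3 mASO STAT3 libraries lay above all 3 mASO Scrbl libraries. For Hmgcs1 the log2 fold change in the siRNA arm minus that in the mASO arm was -1.93 ± 0.33 (edgeR adjusted p = 0.199, DESeq2 adjusted p = 6.05e-05). For Srebf2 the difference was -0.57 ± 0.19 (edgeR adjusted p = 0.615, DESeq2 adjusted p = 0.222). Neither difference passed the edgeR test.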

How the results depend on the processing

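Scaling by library totals gave 6 members higher and 16 lower in the siRNA arm and 10 higher and 5 lower in the mASO arm. With it Npc1 and Srebf2 in the mASO arm turned to -0.47 (edgeR adjusted p = 0.0399) and -0.44 (edgeR adjusted p = 0.00778). The DESeq2 Wald test called 9 members lower in the difference of the arms and 9 higher in mASO STAT3 over siSTAT3; without a filter edgeR called 1 in mASO STAT3 over siSTAT3. Leaving out 1 library at a time gave 9 to 11 higher and 7 to 12 lower in the siRNA arm, 13 to 16 higher and 0 lower in the mASO arm, and 0 to 6 lower in the difference of the arms, the 6 without siCntrl replicate 2. With the replicate block the siRNA arm had 10 higher and 9 lower, the mASO arm 16 higher and 0 lower and the difference of the arms 0. The labels do not state whether the numbers pair the libraries. Over all single-gene alternatives 1195 values kept direction and side of the threshold, 61 lost the call, 28 gained one and 32 turned sign. Of those 32, 30 were called neither before nor after, and the other 2 are Npc1 and Srebf2, given above. With library totals the uncalled mASO values of Cyp51, Idi1, Nsdhl and Sqle turned to -0.25, -0.15, -0.27 and -0.34, that of Mvd in the siRNA arm to -0.072 and the difference of the arms for Soat2 to 0.032. Insig2 in the mASO arm gave 0.0082 with DESeq2 size factors and with the DESeq2 Wald test, 0.046 with limma voom and 0.044 with the replicate block. When 1 library at a time was left out, uncalled values spanned 0: in the mASO arm Hsd17b7 ran -0.24 to 0.18, Idi1 -0.025 to 0.75, Insig2 -0.28 to 0.17, Lbr -0.16 to 0.064, Npc1 -0.075 to 0.20 and Sqle -0.091 to 0.44. In the siRNA arm Ggps1 ran -0.16 to 0.017 and Mvk -0.50 to 0.062, and in the difference of the arms Mylip -0.64 to 0.024, Scap -0.034 to 0.18 and Soat2 -0.26 to 0.11. The cause was not tested.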

Other observations

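Besides Hmgcs1, Fdps and Dhcr7, 4 of 15720 genes were called in opposite directions in the arms; they are named after their values were seen. Lgalsl gave -0.53 ± 0.18 in the siRNA arm (edgeR adjusted p = 0.0271) against 0.47 ± 0.18 in the mASO arm (edgeR adjusted p = 0.0444), and Vnn3 -0.87 ± 0.32 (edgeR adjusted p = 0.0434) and 0.96 ± 0.32 (edgeR adjusted p = 0.0295). Atrx went the other way, with 0.42 ± 0.15 (edgeR adjusted p = 0.0396) and -0.40 ± 0.15 (edgeR adjusted p = 0.048), as did Foxk1, with 0.46 ± 0.18 (edgeR adjusted p = 0.0447) and -0.55 ± 0.18 (edgeR adjusted p = 0.0216).

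Other libraries also held an uneven share of the extremes among the 28 genes. siSTAT3 replicate 1 was the highest of its group for 19, against 26.7% of all genes, and siSTAT3 replicate 3 the lowest for 15, against 32.0%. mASO STAT3 replicate 1 was the lowest for 19, against 32.7%, and mASO Scrbl replicate 1 the highest for 17, against 25.9%.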
